A study of Mus musculus with 1 sample.

Results

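The cells described here are candidate mast cells and type 2 lymphoid cells of the pancreas of young mice, 74 of 10129 retained cells (0.731%, Clopper-Pearson 95% interval 0.574 to 0.916%). They were chosen by their counts of unique molecular identifiers (UMIs), which count captured RNA molecules. A member held at least 2 UMIs over 7 genes (Il1rl1, Il5, Csf2, Mcpt4, Cma1, Cpa3 and Tpsb2), at most 1 UMI of the B cell genes Cd79a, Cd79b and Ms4a1, and fewer than 10 UMIs of the collagen genes Col1a1 and Col3a1. A member was placed on the mast side when Mcpt4, Cma1, Cpa3 and Tpsb2 summed to at least 2 UMIs and to more than Il5, Csf2 and Areg, and on the lymphoid side in the reverse case. This gave 38 lymphoid side cells (51.4% of the members), 14 mast side cells and 22 undecided cells.

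The study asked how loss of SCAP, the protein that escorts the sterol-sensing SREBP factors to their activation, changes the cells of the pancreas. The library analysed came from wildtype mice of the Scap f/f genotype, 2 weeks old, whose Scap alleles are flanked by loxP sites and which carried no Cre, so Scap was intact. The pancreata of 5 to 6 mice, males and females in equal number, were pooled into 1 droplet library, so cells could not be traced to an animal. The library of mice lacking Scap in the pancreas was not analysed here.

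With 1 library there was no replicate and no test between groups. Levels are UMIs of a gene per 1000000 UMIs of the pooled cells of a group (CPM) with exact Poisson 95% intervals, and shares of cells carry Clopper-Pearson 95% intervals. These intervals cover counting error only. A gene was called between groups when its CPM plus 50 differed by at least 4-fold. The genes of the rule were left out of these calls, since they chose the cells.

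Mast cells are long-lived tissue cells that store histamine and serine proteases in heparin-bound granules and need the receptor Kit for survival. Type 2 lymphoid cells, innate lymphoid cells (ILC2) and T helper 2 cells, are driven by the transcription factor Gata3 and make interleukin-5, interleukin-13, GM-CSF (Csf2) and amphiregulin (Areg). Both kinds carry the interleukin-33 receptor encoded by Il1rl1, which lets them respond to the alarm signal that stromal cells release when damaged.

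Outside the rule, 36 of the 38 lymphoid side cells held a UMI of Gata3, Rora or Il7r and 28 held at least 3 UMIs of them, while 1 cell held none of them and 45 UMIs of Cd74. Such UMIs were not particular to these cells. Rora was found in 86.8% of lymphoid side cells, 9.91% of T cells and 69.1% of fibroblasts (both defined below). Il7r was found in 71.1% of lymphoid side cells and 31.9% of T cells, and Gata3 in 63.2% and 14.9%. On the mast side, 31 of the 32 UMIs of Hdc, which makes histamine and was not in the rule, were in 3 of the 14 cells. Counts outside the rule were thus found in most lymphoid side cells, through Gata3, Rora or Il7r, and in a minority of mast side cells, through Hdc. Those of Gata3, Rora or Il7r were also found in most undecided cells, so they do not follow the lymphoid side call. A UMI of Gata3, Rora or Il7r does not by itself meet the label. The proteases of the rule were abundant in the same 3 cells, whose 4 protease genes summed to 134, 131 and 106 UMIs. The other 11 held between 2 and 5 UMIs, all of Cpa3, with no UMI of Mcpt4, Cma1 or Tpsb2. No cell lay between these values. The 3 protease-rich cells and the 11 others are therefore given apart below, a split made after the values were seen.

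**Figure D1:**
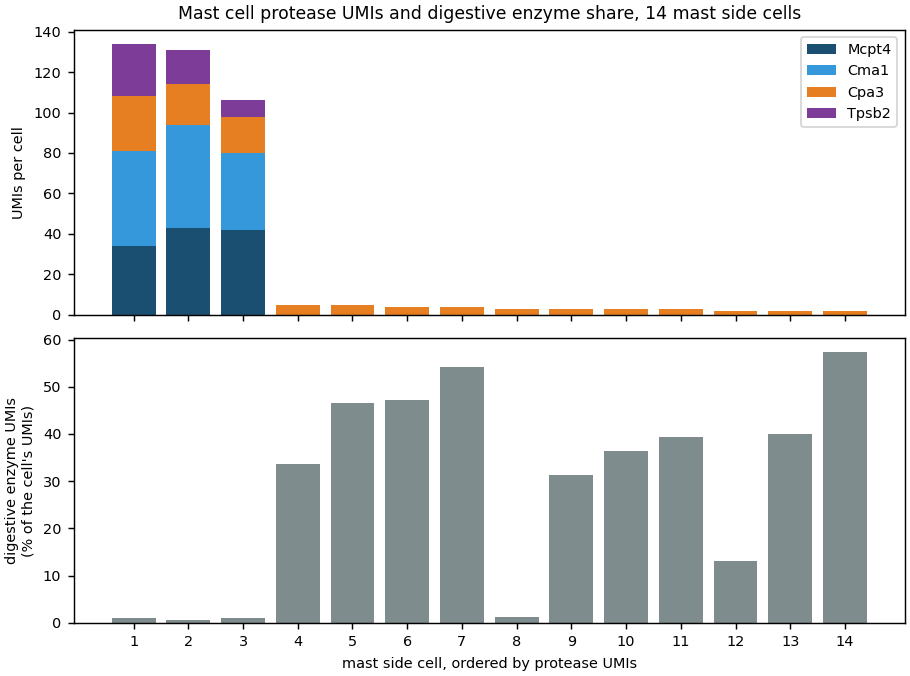
UMIs of Mcpt4, Cma1, Cpa3 and Tpsb2 in each of the 14 mast side cells (upper bars, UMIs per cell) and the share of each cell's UMIs that came from 28 digestive enzyme genes (lower bars, percent). The first 3 cells hold 106 to 134 protease UMIs and at most 1.01% enzyme UMIs, and the other 11 hold 2 to 5 UMIs, all Cpa3.

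The 3 protease-rich cells carried the protease set of connective tissue mast cells. Cma1 and Mcpt4 encode chymases, Tpsb2 a tryptase and Cpa3 the mast cell carboxypeptidase. Cma1 was counted 47, 51 and 38 times in the 3 cells, which held 1188, 1047 and 986 UMIs in total. Mcpt4 was counted 34, 43 and 42 times in the same order. Cpa3 was counted 27, 20 and 18 times, and Tpsb2 26, 17 and 8 times. Whether the spread among the 3 cells differed between these genes was not tested. Pooled, Cma1 stood at 42223 CPM (35425 to 49945) and Mcpt4 at 36945 CPM (30606 to 44210), and these values chose the cells.

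The proteases are encoded close together in part. Cma1 (chromosome 14, 55941451 to 55944675, minus strand, mm10) and Mcpt4 (chromosome 14, 56059629 to 56062313, minus strand) lie 115 kb apart in the chymase cluster. The cluster also holds Mcpt1, Mcpt2, Mcpt8, Ctsg and Gzmb, and none of these had a UMI in the 3 cells. Mcpt1 and Mcpt2, the chymases known from mucosal mast cells, had no UMI in any retained cell. Tpsb2 (chromosome 17, 25366305 to 25369098, plus strand) lies 20.7 kb from the related tryptase gene Tpsab1, which had no UMI in the 3 cells and 2 UMIs in 1 other retained cell. Cpa3 (chromosome 3, 20215620 to 20242181, minus strand) lies 6.08 kb from Cpb1 (20248264 to 20275733, minus strand), which encodes the pancreatic carboxypeptidase B.

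The stretches of 120 bases before the start sites of 3 of these genes are shown because mast cells and type 2 lymphoid cells both use GATA factors. They are RefSeq promoter sequences of build GRCm38.p6, written 5′ to 3′ on the gene's strand, and the capitals mark AGATAA and its variant AGATAG as well as TGATAA and its variant TGATAG, on either strand, letters that GATA factors are known to bind. Mcpt4 is at chr14:56062311-56062430, Cma1 at chr14:55944676-55944795 and Cpa3 at chr3:20242182-20242301, all on the minus strand.
Mcpt4: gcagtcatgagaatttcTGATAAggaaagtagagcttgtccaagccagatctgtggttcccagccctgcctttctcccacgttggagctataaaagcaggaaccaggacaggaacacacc
Cma1: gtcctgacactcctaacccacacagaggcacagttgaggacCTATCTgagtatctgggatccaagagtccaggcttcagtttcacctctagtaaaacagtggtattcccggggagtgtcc
Cpa3: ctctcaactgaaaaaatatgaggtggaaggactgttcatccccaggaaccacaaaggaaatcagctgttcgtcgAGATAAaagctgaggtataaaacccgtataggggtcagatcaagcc

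Each of the 3 stretches held 1 match. In all, 12.8% of 32851 promoters held a match in the same 120 bases. A match is a description of the letters and not a bound site. Of the GATA factors known in mast cells, Gata2 had 2 UMIs in 2 of the 3 cells, and Gata1 had none in them. Gata3 also had none in the 3 cells.

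Beyond the rule, the 3 cells held RNA for histamine synthesis and for mast cell receptors. Hdc, which makes histamine from histidine, was counted 7, 7 and 17 times, a pooled level of 9624 CPM (6539 to 13661) against 7.38 CPM (4.78 to 10.9) in 1421 other leukocytes. These were the retained cells outside the members with a UMI of Ptprc (CD45) and under 10 collagen UMIs, most of them T and B cells. Kit was counted 2, 3 and 1 times. Mrgprb2, the receptor through which basic peptides and drugs activate mast cells, was counted 1, 3 and 1 times, and its relative Mrgprb1 3, 3 and 0 times. Neither Mrgprb gene had a UMI among the other leukocytes. Fcer1g, the signalling chain of the IgE receptor, had 9 UMIs in all 3 cells, while Fcer1a and Ms4a2, the chains particular to that receptor, had none. At 3221 UMIs over the 3 cells, 1 UMI equals 310 CPM, and a count of 0 leaves room for a level of up to 931 CPM (3 UMIs).

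In total, 102 genes had a UMI in each of the 3 cells. They include the 4 protease genes that chose the cells. Cyp11a1, the enzyme that opens steroid synthesis by cutting the cholesterol side chain, had 9 UMIs in the 3 cells (2794 CPM, 1278 to 5304) and none in the other leukocytes. Slc6a4, the serotonin transporter, had 4 UMIs, against 1 UMI in all other leukocytes. Mitf, a transcription factor of mast cell development, had 1 UMI in each cell. Srgn, the core protein of granule proteoglycans, had 25 UMIs (7762 CPM, 5023 to 11458) against 611 CPM (585 to 638). Fos had 37 UMIs and Junb 25, so immediate early RNA was also present.

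Across all barcodes, whatever their size, Mcpt4, Cma1 and Tpsb2 had 424 UMIs, and 401 of them (94.6%) were in 4 barcodes. No other barcode held more than 1. Of the 4 barcodes, 3 are the protease-rich members. The remaining 1 held 2165 UMIs with Mcpt4 at 30, Cma1 at 50, Cpa3 at 20, Tpsb2 at 15, Kit at 3 and Hdc at 9, and was left out of the members by its 16 collagen UMIs. It also held 314 UMIs of the haemoglobin gene Hbb-bs.

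Cpa3 followed another pattern than the other proteases. Of its 1816 UMIs in all barcodes, 85 (4.68%) were in the same 4 barcodes. In the remaining retained cells, the share with a Cpa3 UMI was 0.373% (0.255 to 0.526%, 32 of 8576 cells) where digestive enzymes made up under 2% of UMIs and 5.94% (4.25 to 8.03%, 39 of 657 cells) where they made up 30% or more. The median depths of these cells were 2477 and 3598 UMIs. On the level scale, which sets depth aside, Cpa3 stood at 1.34 CPM (0.934 to 1.86) and 24.7 CPM (19.1 to 31.4). Between them it stood at 30.0 CPM (20.5 to 42.3) in cells with 2 to 10% and 19.99 CPM (12.7 to 30.0) in cells with 10 to 30%, so the level was higher in each group above 2% but did not climb further. The other 3 proteases together had 11, 2, 1 and 2 UMIs in the 4 groups from lowest to highest enzyme share, or 0.421, 1.87, 0.869 and 0.747 CPM. Among 319 barcodes of 10000 or more UMIs with at least 30% enzyme UMIs, 155 held Cpa3, at 116 CPM (110 to 123), and the other 3 proteases had 4 UMIs in all.

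**Figure D2:**
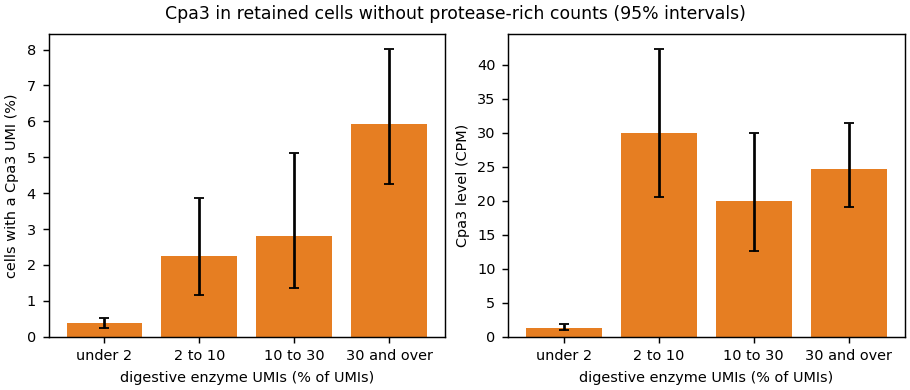
Share of cells with a Cpa3 UMI (left, percent) and pooled Cpa3 level (right, CPM) in retained cells grouped by the digestive enzyme share of their UMIs, with 95% Clopper-Pearson and Poisson intervals and without the 4 protease-rich barcodes. Both measures are lowest below 2% enzyme UMIs, at 0.373% of cells and 1.34 CPM.

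Of the 11 mast side cells without the other proteases, 10 held 13.1 to 57.4% digestive enzyme UMIs, while the median over the lymphoid side was 0.913%. Ctrb1, which encodes chymotrypsinogen, had 5043 UMIs in the 11 cells. None of these 10 cells had a UMI of Ptprc. Their Kit counts lay between 0 and 2. The remaining 1 of the 11 was unlike them, with 1.31% enzyme UMIs, Il1rl1 at 3, Gata3 at 4, Rora at 4, Ptprc at 5 and Cpa3 at 3 UMIs. The mast label rests, in these 11 cells, on Cpa3 alone. Cpa3 belongs to the carboxypeptidase family of the pancreatic enzymes encoded by Cpa1 and Cpb1, and whether reads of those genes were counted under Cpa3 was not tested.

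In the comparison of the whole mast side with the lymphoid side, digestive enzyme genes were prominent on the mast side. Of 913 genes tested, 75 (8.21%) were past 4-fold on the mast side and 160 (17.5%) on the lymphoid side. The enzyme gene Cela3b led the first group with 851 UMIs, 850 of them in the 11 cells, against 10, and the next in order were Cpb1, Try4, Spink1, Zg16 and Ctrb1. Of 8 epithelial and acinar genes listed, 5 were tested and all 5 were past 4-fold on the mast side, with a median log2 fold of 5.05 against -0.997 over all genes tested. Of 22 genes listed for mast cell identity, 6 were tested and 3 were past 4-fold, Hdc, Cd63 and Rab27b, with a median log2 fold of 1.41 over the 6. These 3 had 7, 5 and 3 UMIs on the lymphoid side. They reached the 20 UMIs needed for testing through the mast side, so their calls and this median are no support for the label. Hdc had 31 of its 32 mast side UMIs in the 3 protease-rich cells, whereas Cd63, a granule and lysosome membrane protein, had 20 of 26 in the 11 others and Rab27b, a regulator of secretion, 16 of 20.

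Cd52 led the genes past 4-fold on the lymphoid side against the mast side. This surface glycoprotein of lymphocytes had 129 UMIs in 35 of 38 cells and no UMI on the mast side. S100a4 had 110 UMIs against 0, and Skap1, an adaptor of lymphocyte receptor signalling, 100 against 1. Stab2, with 105 against 2, and Trbc2, with 52 against 0, were also among the first 10. Of 29 type 2 lymphoid genes listed, 12 were tested, 9 were past 4-fold on the lymphoid side, beside 17.5% of all 913 genes, and none on the mast side. The median log2 fold of the 12, mast side over lymphoid side, was -2.78, against -0.997 over all genes tested. A gene needed 20 UMIs over both groups to be tested, and the 12 reached that through their lymphoid side UMIs. The 9 calls and the median are therefore no support for the label.

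Against the 1421 other leukocytes, 109 of 10243 genes (1.06%) were past 4-fold on the mast side and 174 (1.7%) the other way. The first of the 109 was Ghr, the growth hormone receptor, with 85 mast side UMIs, all of them in the 11 cells and none in the protease-rich cells. Mecom, a zinc finger factor, had all its 63 mast side UMIs in the 11 cells, as did Lrrc7 with 33 and Ptprn2 with 31. Sel1l, part of the machinery that clears misfolded protein from the endoplasmic reticulum, had 79 of 80 there. The enzyme genes Ctrl, Pnliprp1, Cela3b, Try4, Cela1 and Cel were among the next 10 in order. Hdc, named here from the list of mast cell genes since only 4 mast side cells held it, was also among the 109, at 546 CPM over the whole mast side, with 31 of its 32 UMIs in the 3 protease-rich cells. Kit, past 4-fold too, stood at 222 CPM over the whole mast side, at 1863 CPM (684 to 4054) in the 3 cells and at 126 CPM (50.8 to 260) in the 11.

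The lymphoid side was a more even group of 38 cells, with 78693 UMIs in all, between 818 and 4833 UMIs a cell and a median of 1739. Enzyme UMIs were at most 5.49% of a cell. Its rule genes, which chose the cells, were divided among them in different proportions. Il5, the growth factor of eosinophils, had 73 UMIs in 12 cells, from 0 to 21 a cell with a median of 0. Csf2 had 96 UMIs in 29 cells, from 0 to 9 with a median of 2. Areg, a ligand of the EGF receptor, had 69 UMIs in 19 cells, from 0 to 10 with a median of 0.5. Il1rl1 had 102 UMIs in 32 cells, from 0 to 15 with a median of 2.

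Il5 was therefore concentrated in few cells and Csf2 spread over most. Il5 and Csf2 were found together in 8 cells and Csf2 and Areg in 13. Il5 and Areg met in 2 cells, and all 3 genes in 1. Of the 8 cells with at least 4 Il5 UMIs, 1 held Areg, and of the 7 with at least 4 Areg UMIs, 1 held Il5. Since a cell entered by the sum of these genes, a cell low in 1 of them had to be high in another, and no test of their exclusion was made.

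**Figure D3:**
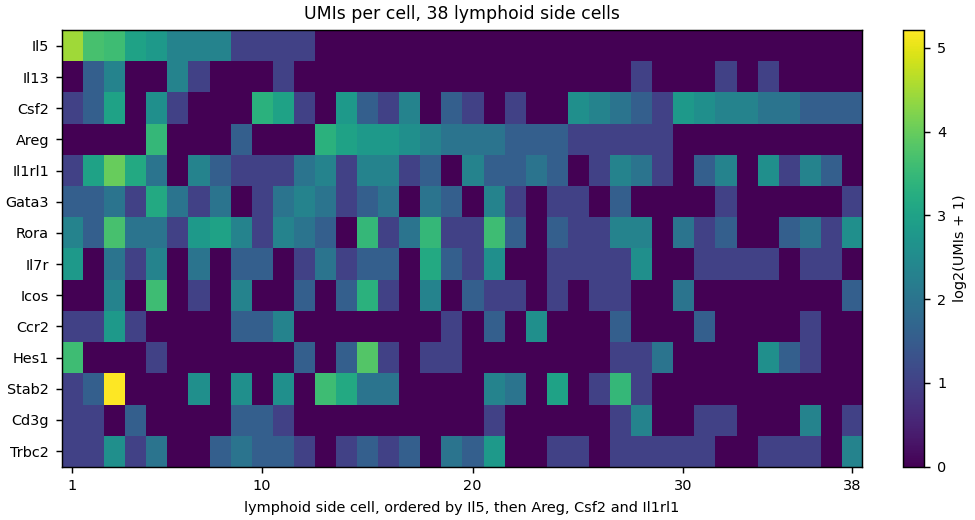
UMIs per cell of 14 genes in the 38 lymphoid side cells, as log2(UMIs + 1), with 1 column a cell, ordered by Il5, then Areg, Csf2 and Il1rl1. Il5 fills the first 12 columns, Rora is found in 33 cells, and Stab2 in 16.

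Il5, Il13 and Csf2 lie on chromosome 11. Il5 (53720794 to 53725106, plus strand, mm10) and Il13 (53631324 to 53634702, minus strand) are 86.1 kb apart in the type 2 cytokine locus, and Csf2 (54247271 to 54249667, minus strand) is 522 kb from Il5. Il13, which drives mucus and alternative macrophage activation, was not in the rule and had 15 UMIs in 8 lymphoid side cells, 5 of which also held Il5. T cells had 5 Il13 UMIs in 3 cells. Il4, 102 kb from Il5 in the same locus, had 1 UMI on the lymphoid side. Il3, beside Csf2, had no UMI in any retained cell. Areg (91139599 to 91148432, plus strand) and Il1rl1 (40429570 to 40465415, plus strand) lie on chromosomes 5 and 1.

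The stretches of 120 bases before Il5 (chr11:53720674-53720793, plus strand) and Il13 (chr11:53634703-53634822, minus strand) are shown as the genes most characteristic of the type 2 programme, and that of Il1rl1 (chr1:40429450-40429569, plus strand) as the receptor shared with mast cells. They come from the same source, with the same letters in capitals.
Il5: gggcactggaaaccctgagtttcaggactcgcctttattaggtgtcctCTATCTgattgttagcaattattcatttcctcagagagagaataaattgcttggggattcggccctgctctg
Il13: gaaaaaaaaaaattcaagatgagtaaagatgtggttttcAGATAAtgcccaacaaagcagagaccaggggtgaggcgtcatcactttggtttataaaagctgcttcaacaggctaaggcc
Il1rl1: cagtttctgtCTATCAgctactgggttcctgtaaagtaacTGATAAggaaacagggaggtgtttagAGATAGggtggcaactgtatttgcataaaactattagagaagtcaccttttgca

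The upstream start site of Il1rl1 carried 3 matches in its 120 bases, and Il5 and Il13 carried 1 each, while Csf2 and Areg carried none. The 120 bases of Csf2 (chr11:54249900-54250019) lie upstream of the gene start given above, at 54249667. The bases between them and that start were not part of this window. In the wider window of 250 bases, Il5, Il13, Csf2 and both listed start sites of Il1rl1 held a match and Areg held none, while 26.5% of all promoters held one. Tpsb2 had no entry.

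Gata3, which was not part of the rule, had 56 UMIs in 24 of the 38 lymphoid side cells, from 0 to 8 a cell with a median of 1. Its level was 712 CPM (538 to 924), against 85.3 CPM (73.3 to 98.8) in 908 T cells. A T cell was a retained cell outside the members whose Cd3d, Cd3e, Cd3g and Trac counts summed to 2 or more, with under 10 collagen UMIs. The ratio of the levels was 8.34 (6.06 to 11.3). B cells, which should lack the gene, had it in 2 of 414 cells (0.483%) at a median depth of 1430 UMIs, and T cells in 14.9% at a median of 1784. With each cell thinned to 800 UMIs, 39.5% (24.0 to 56.6%) of lymphoid side cells and 6.06% (4.60 to 7.81%) of T cells held Gata3.

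Against T cells, 69 of 8464 genes (0.815%) were past 4-fold on the lymphoid side and 29 (0.343%) on the T cell side. Of the 29 listed type 2 lymphoid genes, 21 were tested, 6 were past 4-fold on the lymphoid side and 1, Tcf7, on the T cell side. The median log2 fold of the 21 was 0.67, against -0.07 over all genes tested. Rora, Hes1, Id2, Gata3 and Pparg were among the 6. Hes1 and Pparg, with 18 and 13 UMIs in T cells, reached the 20 UMIs needed for testing only with their lymphoid side UMIs. Their calls, and the count and median that include them, are no support for the label. Rora, a nuclear receptor needed for ILC2 development, had 120 UMIs in 33 cells (1525 CPM, 1264 to 1823) against 91.0 CPM (78.6 to 105) in T cells and 627 CPM in fibroblasts. Id2, which blocks the E proteins of T and B cell fate, stood at 788 CPM (604 to 1010) against 91.5 CPM (79.1 to 105). Hes1, a target of Notch, had 45 UMIs in 14 cells, 24 of them in 2 cells, and stood at 572 CPM with these and 290 CPM without them, against 8.53 CPM in T cells. Pparg, a lipid-sensing nuclear receptor, had 16 UMIs in 10 cells.

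The fold of 4 left out other listed genes that were common in these cells. Il7r, the interleukin-7 receptor chain, stood at 775 CPM (593 to 996) against 228 CPM (208 to 249) in T cells. Icos, a costimulatory receptor, stood at 635 CPM (472 to 838) against 211 CPM (191 to 231). Il2ra stood at 280 CPM (175 to 423) against 36.5 CPM (28.8 to 45.6), and Klrg1, an inhibitory receptor of tissue ILC2, had 8 UMIs in 7 cells. Bcl11b and Ets1, shared by ILC2 and T cells, stood at 318 CPM (206 to 469) and 623 CPM (461 to 823), against 440 and 751 CPM in T cells. Ptgdr2 and Nmur1, receptors for prostaglandin D2 and neuromedin U that mark ILC2 in other tissues, had no UMI on the lymphoid side, where a count of 0 leaves room for up to 38.1 CPM (3 UMIs). The neuropeptide gene Calca had 15 UMIs in 5 cells, 11 of them in 1 cell.

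**Figure D4:**
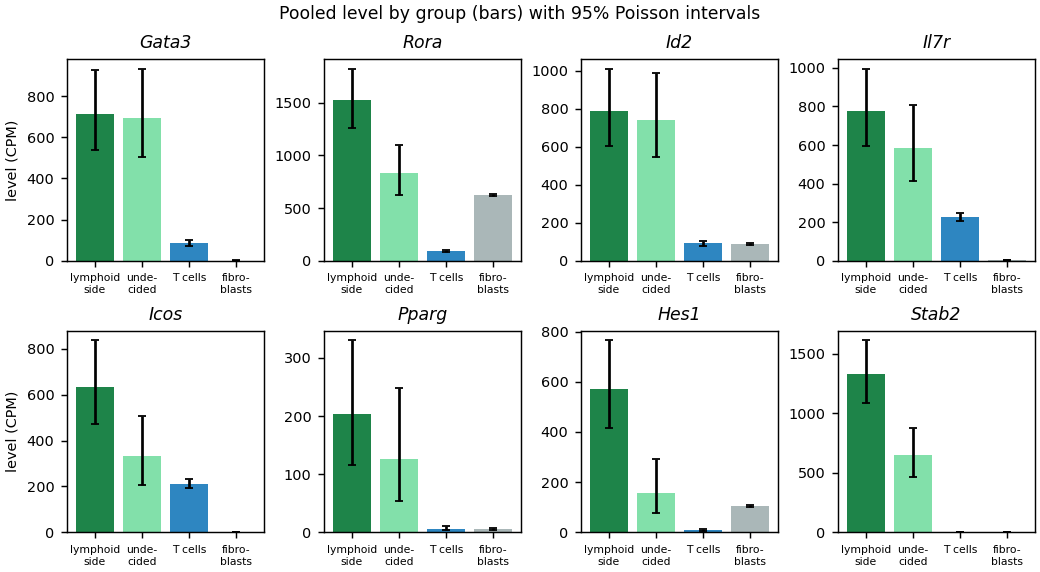
Pooled levels in CPM of 8 genes outside the rule in lymphoid side cells (38), undecided cells (22), T cells (908) and fibroblasts (6547), with 95% Poisson intervals. Gata3 stands at 712 CPM on the lymphoid side and 85.3 CPM in T cells, and Rora stands at 627 CPM in fibroblasts.

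Stab2 led the list against T cells. It encodes a scavenger receptor for hyaluronan that is best known from sinusoidal endothelium. It had 105 UMIs in 16 lymphoid side cells (1334 CPM, 1091 to 1615), from 1 to 36 in the cells that held it, and 3 UMIs in 1 T cell. The ratio of the levels was 938 (312 to 4622). Undecided cells had 41 UMIs of Stab2 in 10 cells. B cells had 2 UMIs, macrophages none and the 6547 fibroblasts 13. All 16 lymphoid side cells with Stab2 held Il1rl1, 13 held Gata3 and 11 held Areg, beside 32, 24 and 19 of all 38 cells. Il1rl1 and Areg were used in choosing the lymphoid side cells, and no test of the overlap was made. The endothelial marker Cdh5 had no UMI on the lymphoid side, and Pecam1, shared by endothelium and leukocytes, was found in 3 of the 16.

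Several of the other leading genes against T cells encode secreted or signalling proteins. Cxcl2, a neutrophil attractant, had 58 UMIs in 12 cells, and Cxcl10, an attractant of activated T cells, had 28 UMIs in 6 cells, 14 of them in 1. Cxcl10 had 7 UMIs in T cells. It reached the 20 UMIs needed for testing through the lymphoid side, so its call is no support for the label. Ptpn13, a phosphatase, had 73 UMIs in 20 cells, of which 33 were in 1 cell. Nfkb1 stood at 1970 CPM against 223 CPM, and Samsn1, an adaptor of lymphocyte signalling, at 1487 CPM against 118 CPM. Hilpda, a lipid droplet protein, had 52 UMIs in 20 cells, and S100a4 110 UMIs in 31. Of 24 cytokine genes listed, 10 were tested and 4 were past 4-fold, namely Cxcl2, Lif, Il13 and Ccl1, beside 0.815% of all 8464 genes. The median log2 fold of the 10 was 1.06, against -0.07 over all genes tested. Lif, Il13 and Ccl1 had 6, 5 and 8 UMIs in T cells. They reached the 20 UMIs needed for testing through the lymphoid side, so their calls and this median are no support for the label. Lif, of the interleukin-6 family, had 20 UMIs in 6 cells, and Ccl1, the ligand of Ccr8, had 13 in 7. Ifng, Il17a, Il22, Il9 and Il6 had no UMI on the lymphoid side.

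Of 19 immediate early genes listed, 18 were tested, 7 were past 4-fold on the lymphoid side, beside 0.815% of all 8464 genes, and none on the T cell side. Their median log2 fold was 1.86, against -0.07 over all genes tested. Fos stood at 2732 CPM (2379 to 3123) against 382 CPM (356 to 409) and Junb at 2923 CPM (2557 to 3326) against 494 CPM (464 to 525). Fosb, Dusp1, Zfp36, Nfkbia and Nr4a1 were the others. These genes are known to respond to tissue dissociation as well as to stimulation, and the part of dissociation in the levels was not tested. In fibroblasts Fos stood at 4488 CPM.

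On the T cell side of the same comparison, Hbb-bs led and haemoglobin, enzyme and T cell genes were mixed. The red cell genes Hbb-bs, Hba-a1, Hba-a2 and Hbb-bt were among the first 10, Hbb-bs at 165 CPM against 6254 CPM, and so was the enzyme gene Cela3b, at 127 CPM against 1083 CPM. Nkg7, a gene of cytotoxic lymphocytes, had no UMI on the lymphoid side against 270 CPM in T cells, and Ms4a4b stood at 38.1 CPM against 1093 CPM. Lef1, a transcription factor of naive T cells, had 10 UMIs on the lymphoid side (127 CPM) against 952 CPM in T cells. S1pr1, which guides exit from tissue, stood at 25.4 CPM against 369 CPM, and Ccr7, a lymph node homing receptor, had no UMI on the lymphoid side against 250 CPM. Of 16 chemokine and homing receptors listed, 13 were tested, and 2, S1pr1 among them, were past 4-fold on the T cell side, beside 0.343% of all genes tested. The chemokine receptor gene Ccr2 was the 1 past 4-fold on the lymphoid side, beside 0.815% of all genes tested, with 30 UMIs in 13 cells (381 CPM, 257 to 544) against 18.5 CPM (13.1 to 25.3).

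T cell receptor genes were counted because T helper 2 cells carry the receptor and innate lymphoid cells do not. RNA counts of these genes do not show whether a cell made a receptor, so they do not settle which kind a cell is. Of the 38 lymphoid side cells, 14 (36.8%, 21.8 to 54.0%) held a UMI of the 4 genes that define the T cells, and 6 held more than 1. With each cell thinned to 800 UMIs, the share with such a UMI was 26.3% (13.4 to 43.1%) on the lymphoid side and 88.1% (85.8 to 90.1%) in T cells, which were chosen by these genes. The make-up of these UMIs differed from that of T cells. Cd3g had 22 of the 27 UMIs on the lymphoid side (81.5%, 61.9 to 93.7%), while Cd3d had 2, Cd3e 2 and Trac 1. In T cells Cd3g had 1224 of 5095 UMIs (24.0%, 22.9 to 25.2%), and in fibroblasts 61 of 325 (18.8%, 14.7 to 23.4%). Whether stray T cell RNA contributed to the 27 UMIs was not tested.

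The receptor chains were also unequal. Trbc1 and Trbc2, the constant parts of the beta chain, had 71 UMIs on the lymphoid side beside 1 of Trac, the constant part of the alpha chain (98.6% beta, 92.5 to 100.0%), against 3220 beside 1254 in T cells (72.0%, 70.6 to 73.3%). Trbc2 alone was found in 28 of 38 cells. Tcrg-C1, a constant part of the gamma chain, had 12 UMIs in 7 cells (152 CPM, 78.8 to 266) against 18.5 CPM (13.1 to 25.3) in T cells, and Trdc, that of the delta chain, had none. Cd4 had 1 UMI, Cd8a none, Cd5 1 and Cd28 11, and 6 of the Cd28 UMIs were in 1 cell. In B cells, which should lack these genes, Trbc2 was found in 7 of 414 cells (1.69%, 0.682 to 3.45%). The 4 complex genes were found in 12 B cells (2.90%, 1.51 to 5.01%). The median depth of B cells was 1430 UMIs, against 1739 UMIs on the lymphoid side. B cells were chosen by more than 1 UMI of Cd79a, Cd79b and Ms4a1 and at most 1 UMI of the 4 complex genes. The share of 12 cells was therefore capped by the choice and does not measure stray RNA. The share with Trbc2 was 73.7% (56.9 to 86.6%) on the lymphoid side and 77.3% (74.4 to 80.0%) in T cells, so Trbc2 did not separate these groups. In the undecided cells 4 of 11 UMIs of the 4 complex genes were Cd3g (36.4%, 10.9 to 69.2%), an interval that reaches the value of T cells.

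**Figure D5:**
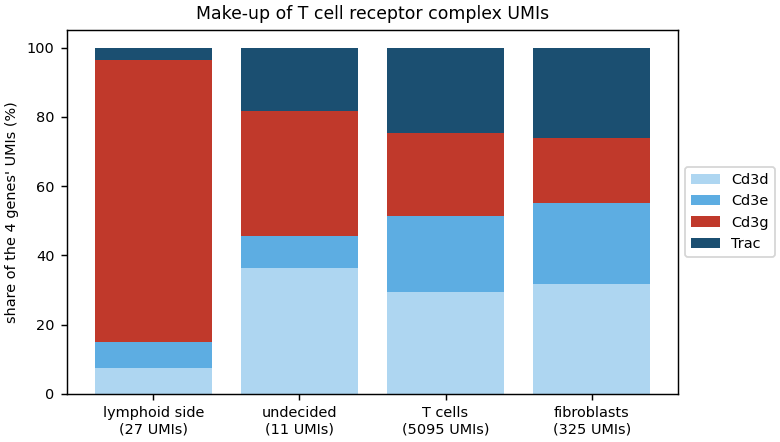
Shares (percent) of Cd3d, Cd3e, Cd3g and Trac in the UMIs of these 4 genes, pooled over lymphoid side cells, undecided cells, T cells and fibroblasts, with the number of UMIs under each bar. Cd3g makes up 81.5% of 27 UMIs on the lymphoid side and 24.0% of 5095 in T cells.

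Genes of other lymphoid classes differed in level. Of 7 genes listed for regulatory T cells, Foxp3, their defining factor, Ctla4 and Tigit had no UMI on the lymphoid side, and Ikzf4 and Tnfrsf4 had 1 each. Il2ra, given above, and Ikzf2 were present, Ikzf2 with 16 UMIs in 12 cells (203 CPM, 116 to 330) against 413 CPM (386 to 441) in T cells. Of 9 genes for natural killer and type 1 lymphoid cells, Klrk1 and Il12rb2 had 1 UMI each and the other 7, including Ncr1, Gzma and Tbx21, had none. Of the genes listed for type 3 lymphoid cells, Il23r, Il17a, Il22 and Il1r1 had none, Ccr6 had 1 UMI and Kit had 9 in 8 cells. The basophil genes Mcpt8 and Prss34 had none in any of the 74 members, and Cd200r3 had 1 UMI on the lymphoid side. Cd74, a gene of antigen presentation, had 49 UMIs on the lymphoid side, 45 of them in 1 cell. Without that cell Gata3 stood at 744 CPM, and 72 genes were past 4-fold over T cells. Another cell held all 12 lymphoid side UMIs of Tph1, the enzyme that starts serotonin synthesis.

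The 22 undecided cells were undecided for their few cytokine UMIs, and 7 of them held counts of other lineages (described below), which add to the total behind each CPM. Il1rl1 was found in 21 of the 22 cells, from 0 to 7 UMIs with a median of 3. Gata3 had 44 UMIs in 12 cells (695 CPM, 505 to 933), a ratio of 0.976 (0.643 to 1.48) to the lymphoid side, and 40 UMIs in the 15 cells without such counts (1092 CPM, 780 to 1487), a ratio of 1.53 (0.996 to 2.34). Rora stood at 837 CPM (627 to 1095), a ratio of 0.549 (0.390 to 0.764), and at 1256 CPM (919 to 1675) in the 15, a ratio of 0.824 (0.573 to 1.17) whose interval holds equal levels. Hes1 stood at a ratio of 0.276 (0.124 to 0.556) to the lymphoid side in the 22 cells and 0.239 (0.0739 to 0.599) in the 15. Without the 2 lymphoid side cells richest in Hes1 these ratios were 0.544 (0.229 to 1.21) and 0.470 (0.139 to 1.28), and both intervals then hold equal levels. Il7r stood at 584 CPM (411 to 805) in the 22 cells, a ratio of 0.754 (0.487 to 1.15). In the 15 it stood at 901 CPM (620 to 1265), a ratio of 1.16 (0.737 to 1.80). Id2 stood at 742 CPM (545 to 987) in the 22 cells, a ratio of 0.942 (0.631 to 1.40), and at a ratio of 1.11 (0.700 to 1.73) in the 15. These intervals all hold equal levels. Leaving out the 7 cells with counts of other lineages and the 2 cells richest in Hes1 was chosen after seeing the data. Kit had 19 UMIs in 8 cells, against 9 UMIs in 8 cells on the lymphoid side, a ratio of 2.62 (1.13 to 6.58). In the 15 cells the Kit ratio was 4.06 (1.71 to 10.3). Both Kit intervals lie above equal levels, but 6 of the 19 UMIs were in 1 cell and 5 in another. Il13 had no UMI in undecided cells.

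Between undecided and lymphoid side cells, 19 of 1177 genes (1.61%) were past 4-fold higher in the undecided and 2 (0.17%) higher on the lymphoid side, Cxcl10 and Ptpn13. The 19 included 4 haemoglobin genes and several digestive enzymes, led by Hbb-bs with 767 UMIs, of which 750 were in 1 cell. Single cells carried other lineages. Cdh5 had 15 and 6 UMIs in 2 cells, which also held Kitl, the ligand of Kit, with 2 and 5 UMIs. Cd74 had 85 and 16 UMIs in 2 others, C1qa 4 in 1, and 1 cell held 32.4% enzyme UMIs, which with the Hbb-bs cell makes the 7 left out above. Of the 22 undecided cells, 14 held at least 2 UMIs of Gata3, Rora and Il7r and none of these other signals.

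The threshold of the rule did not separate cells with Gata3 from cells without it. Among cells that met the B cell and collagen limits, 69 held 1 UMI of the 7 rule genes, and 17 of them (24.6%) held Gata3, at 156 CPM (109 to 216). Of 19 cells with exactly 2 UMIs, 9 (47.4%) held Gata3, at 541 CPM (362 to 776). Of 11 cells with 3 UMIs, 5 (45.5%) held it, at 203 CPM (87.6 to 400), and of 44 with 4 or more, 23 (52.3%), at 623 CPM (483 to 791). Among 2651 cells with none, 148 (5.58%) held it, at 29.5 CPM (25.5 to 33.9).

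RNA of ligands known to act on mast cells and type 2 lymphoid cells was found in fibroblasts. Il33, the ligand of the receptor encoded by Il1rl1, had 1376 UMIs in 1018 of 6547 fibroblasts, cells with at least 10 UMIs of Col1a1 and Col3a1 and no Ptprc (63.8 CPM, 60.5 to 67.3), and no UMI in any member. Kitl stood at 92.6 CPM (88.6 to 96.8) in fibroblasts and had no UMI on the lymphoid side. Tslp, another activator of type 2 cells, stood at 7.51 CPM (6.40 to 8.76) in fibroblasts, and Il25 and Nmu had no UMI in members or fibroblasts. Il1rap, the partner chain of the interleukin-33 receptor, had 2 UMIs on the lymphoid side, and Il2rg, the common chain of the interleukin-7 receptor, had 22 UMIs in 15 cells (280 CPM, 175 to 423). Scap itself, the gene of the study, had 2 UMIs on the lymphoid side (25.4 CPM, 3.08 to 91.8) against 39.4 CPM (31.3 to 48.8) in T cells. Of 16 sterol and fatty acid genes listed, 14 were tested between these groups and none was past 4-fold on the lymphoid side, beside 0.815% of all genes tested. All 14 stood at 65.9 CPM or less in T cells, too low for a 4-fold lower call to be possible with 50 CPM added.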

How the data were processed

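Per the labels and the methods of the study, the authors dissociated the pooled pancreata with collagenase, removed dead cells, built a 10x 3′ library and processed it with Cell Ranger 7.1.0 on build mm10. The deposited values are raw UMI counts of 11789 barcodes with 500 to 174899 UMIs each (51540177 in all). No sign of an ambient RNA correction was seen in them, and none was applied.

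Retained cells held over 800 UMIs, less than 10000, and mitochondrial UMIs below 15%. From the counts, CPM were computed over pooled cells. Folds were taken after adding 50 CPM, for genes with at least 20 UMIs over both groups and without the genes that defined either group. Genes were named as the 15 leading genes on each side between mast and lymphoid sides, the 10 leading genes of the other comparisons, found in at least 5 cells of the higher group, and members of fixed lists with the most UMIs. Cyp11a1 and Slc6a4 were named outside this rule, from the genes with a UMI in each of the 3 protease-rich cells. Lef1, at place 14 on the T cell side against the lymphoid side, was also named outside it. Members and lists were chosen with earlier results of these data known. Python 3.11.15, numpy 2.4.6, scipy 1.17.1, pandas 2.3.3 and Scrublet in scanpy 1.11.5 (expected rate 0.08, 2 of the 74 members marked as doublets and kept) were used. Interval and fold functions were tested on simulated data. Gene positions are GENCODE M21. Alternatives changed the UMI, mitochondrial, collagen and side limits, the pseudocount, the minimum of UMIs and the CPM denominator. Some listed genes are not reported here.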

Additional observations from a re-analysis of the deposited data

Results flagged for a closer look

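Signals of the same genes were found in barcodes outside the comparisons. The retained cell left out by the collagen limit held 115 UMIs of Mcpt4, Cma1, Cpa3 and Tpsb2, close to the 106 to 134 of the protease-rich members. In 8 barcodes of 800 or fewer UMIs with at least 2 UMIs of the rule genes, Gata3 had 8 UMIs in 5 barcodes. Barcodes of 10000 or more UMIs held 1562 Cpa3 UMIs in 197 of 832 barcodes, beside 6 UMIs of Mcpt4, Cma1 and Tpsb2 together.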

How the results depend on the processing

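The Gata3 level (648 to 905 CPM) and the share of lymphoid side cells with T cell receptor complex UMIs (26.3 to 44%) moved by less than their intervals in every alternative tried. Counts of cells depended on the limits of the rule. The 74 members became 52 with a lower limit of 1500 UMIs, 55 with at least 3 UMIs of the rule genes and 50 with at most 2 collagen UMIs. The 14 mast side cells became 7 with at most 2 collagen UMIs and 5 with a side called from 5 UMIs. They were 3 with a side called from 20 UMIs and 3 without Cpa3, both alternatives chosen after seeing the data. The 38 lymphoid side cells became 25, 27 and 18 under the limits of 1500 UMIs, 2 collagen UMIs and 5 side UMIs, 47 with a side called from 1 UMI and 28 without Areg.

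Genes past 4-fold on the mast side over the lymphoid side numbered 26 with at most 2 collagen UMIs, 35 with a side called from 5 UMIs, 140 with no minimum of UMIs and 18 without Cpa3, against 75. The reverse count of 160 became 61, 101 and 251 under the collagen, side and no-Cpa3 settings. Over other leukocytes, the mast side count of 109 became 294 with a pseudocount of 10 CPM, 175 with CPM taken without enzyme UMIs and 528 without Cpa3. The lymphoid side count of 69 over T cells became 162 with a pseudocount of 10 CPM. The mast side Kit level of 222 CPM became 621 CPM, 418 CPM and 1863 CPM under the collagen, side and no-Cpa3 settings and 485 CPM as a mean of per-cell CPM. Within its interval, it became 345 CPM with CPM taken without enzyme UMIs. It also became 130 CPM and 140 CPM, within its interval, with limits of 1500 and 100000 UMIs. The undecided cells' Gata3 level moved from 695 to 1092 CPM without the 7 cells holding counts of other lineages. Rora moved from 837 to 1256 CPM and Il7r from 584 to 901 CPM in the same setting. The lymphoid side Hes1 level moved from 572 to 290 CPM without the 2 cells richest in it. The settings without Cpa3 leave 3 mast side cells. The cause of the other differences was not tested. With 1 library no replicate could be left out, and no paired analysis was possible because there was 1 library.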
